A study of Rattus norvegicus with 36 samples.

Results

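The arrays described here hold the RNA of rat skeletal muscle that had not been made to contract, and they are 12 of the 36 arrays of a study of acute resistance exercise. They were chosen by title: 8 arrays titled Muscle-Polysome (the polysomal control, numbers 1 to 4 with 2 arrays each) and 4 titled Muscle-1hr-Polysome (the control titled 1hr, numbers 1 and 2 with 2 arrays each). A number is taken here as 1 sample, so the first control has n = 4 and the second n = 2. The other 24 arrays carry total or polysomal RNA of muscle collected 1 h or 6 h after resisted contractions. The descriptions give a collection time of 1 h for both controls, and the source muscle is written only as "ta". The description of the polysomal control names polyribosomal RNA, whereas that of the control titled 1hr names no fraction, and the molecule field reads total RNA for every sample. "Uncontracted" rests on the missing word Exercise in the titles. Strain, age, sex and the number of animals are not given in the sources used here, nor whether numbers are separate animals, so a p-value measures only the spread between these samples. Every array reports 8740 probe sets other than the manufacturer's controls, and the unit is scaled signal intensity.

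A polysome is a messenger RNA that carries several ribosomes at once, and it is separated from free RNA by its weight. The RNA recovered from it is a sample of what the tissue is translating. Muscle fibres at rest spend most of that effort on the contractile filaments, on the calcium cycle that switches them, on glycolysis and on the mitochondria that make ATP. Fibroblasts, blood cells, vessels and nerve in the same piece of muscle add their own transcripts.

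Before any comparison, the label "polysomal" was set against the data. In exercised muscle at 6 h, 256 of 6678 tested probe sets were higher in polysomal than in total RNA (3.83%) and 318 were lower (4.76%; limma, Benjamini-Hochberg adjusted p under 0.05, 4 numbers against 4). Without the polysomal arrays 1A and 2A of that group the total of 574 became 996, and leaving out 1 number at a time it ran from 259 (exercised 6 h polysomal number 2) to 1055 (exercised 6 h total number 4). The mean log2 signal of the former set minus that of the latter is called the fraction index here. It was 1.70 to 2.14 on the 4 polysomal arrays of exercised muscle at 1 h and 0.459 to 0.67 on the 4 total arrays of that time. These arrays had no part in the difference that chose the probe sets. The filter and the spread in that fit were shared by all 6 groups, so these arrays entered both. The 8 arrays of the polysomal control lay between 2.17 and 2.85. Of the control titled 1hr, arrays 1aA, 1bA and 2aA lay between 1.95 and 2.22, with the polysomal arrays, and array 2bA lay at 0.438, with the total arrays.

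**Figure D1:**
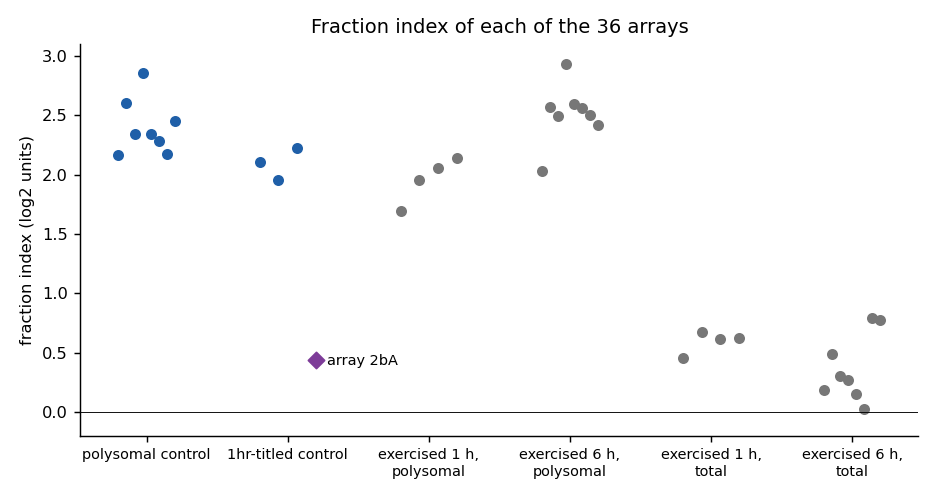
The fraction index in log2 units (vertical axis) of each of the 36 arrays, 1 point per array, by group. The 8 polysomal control arrays and 3 arrays of the control titled 1hr lie above 1.9, and array 2bA (diamond, 0.438) lies at the height of the total RNA arrays. The probe sets were chosen by the difference between fractions on the 16 exercised arrays of 6 h, with a filter and a spread shared by all 6 groups.

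Array 2bA of the control titled 1hr, which is the one meant by that name below, went against its title, and it was left out of the comparison of the controls, where number 2 of the control titled 1hr is array 2aA alone. Its median correlation over tested probe sets was 0.893 with the other 11 control arrays, 0.877 with the polysomal arrays and 0.914 with the total arrays of exercised muscle. The 3′ probe set of beta-actin read 1.07 times its 5′ probe set, against 1.58 to 3.88 times on the other 11 control arrays and 1.22 to 1.62 on the total arrays of 1 h. On the total arrays of 6 h the value ran from 1.01 to 11.5. Arrays 3aA and 3bA of that group stood apart, at 9.01 and 11.5, and they helped to choose the probe sets of the index; without their number the count of 574 was 658. Arrays 1A and 2A of the polysomal control stood apart in another way. Their highest signals were 21050 and 21581, and 4 probe sets on each exceeded 20000, against 24 to 142 on the other 6 arrays of the group. Their GAPDH 3′ to 5′ ratios were 0.074 and 0.037, against 0.363 to 1.19 on those 6. Results that changed most without them are given both ways. Medians of the 12 arrays ran from 163 to 238, and the 2 arrays of a number in the polysomal control correlated at 0.95 to 0.981. Arrays of different numbers correlated at 0.904 to 0.975, and 1A with 2A at 0.962, so arrays of 1 number were not always the most alike.

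At rest, the largest named group among the 100 brightest probe sets of the polysomal control was the nuclear respiratory chain. Another 24 of the 100 had no single symbol. The geometric mean signal over the 4 numbers reached 29054, and the 100 brightest probe sets lay above 17962. Brightness depends on the probes as well as on the transcript, so no order of abundance between genes is drawn from it. Nuclear genes of the respiratory chain and ATP synthase gave 31 of the 100, which is 36.5% of the 85 probe sets of that list, where 1.14% of all probe sets are among the 100 by definition. Of the 7 probe sets of the mitochondrial genome, 6 were among the 100. The fast fibre list gave 6 of its 16 probe sets, and the list of sarcomere genes of all fibres 4 of 24. Glycolysis and glycogen gave 5 of 53, cytosolic ribosomal proteins 4 of 55, and citrate cycle and fatty acid oxidation 4 of 74. In the 500 brightest stood 61 of 85 respiratory chain and 35 of 55 ribosomal protein probe sets. Muscle growth regulators had 1 of 73 there, and translation factors had 3 of 41. In all, 3823 probe sets (43.7%) lay above the floor of 130 on all 8 arrays and 2233 (25.5%) below it on all 8.

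The 30 brightest named genes, each by its brightest probe set, had geometric means from 21330 to 28310. Nuclear respiratory chain genes were 11 of them. Ndufb8, a subunit of complex I, had a lowest, median and highest signal of 15310, 28070 and 54150 over the 8 arrays (log2 SD 0.59 between numbers, n = 4). Cox8b, a heart and muscle subunit of cytochrome oxidase, had 15830, 26870 and 44260. Uqcrfs1, the Rieske iron-sulphur protein of complex III, had 9337, 20400 and 51890, and Atp5f1b, the catalytic beta subunit of ATP synthase, had 9133, 20540 and 52700. In each of these the highest values were those of arrays 4aA and 4bA, and the lowest was that of 1A or 2A. COX1, COX2 and COX3, the cytochrome oxidase subunits encoded in mitochondria and translated on mitochondrial ribosomes, were also among the 30. COX2 had 21050 and 28200 on the arrays of number 1, 21580 and 24260 on those of number 2, 27130 and 25150 for number 3, and 33930 and 32660 for number 4. It was the brightest signal of arrays 1A and 2A.

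The filament genes among the 30 were mostly of fast fibres. Tnni2, the fast isoform of the inhibitory subunit of troponin, lay between 19950 and 36430 (median 30700), with a log2 SD between numbers of 0.21. Myl1, the essential light chain of fast myosin, lay between 18310 and 36110 (median 25580; SD 0.14). Myh4, the heavy chain of the fastest myosin, lay between 16410 and 21510 on the arrays of numbers 1 to 3 and at 52030 and 45360 on those of number 4. The slow light chain Myl3, made in slow fibres and heart, lay between 12830 and 33470. Both isoforms could therefore be read on the same arrays, at brightness that cannot be set against each other.

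Energy supply outside the mitochondrial chain was represented by Eno3, the muscle enolase of glycolysis (14260 to 48600), Pkm, which makes pyruvate (13100 to 40150), Pgk1, a glycolytic kinase (18660 to 24620), and Ckmt2, the mitochondrial creatine kinase (12830 to 35450). Slc25a4, which exchanges ADP and ATP across the inner mitochondrial membrane, lay between 9589 and 55910. Cryab, a small heat shock protein that guards desmin and other filaments, lay between 11730 and 50350. Hbb, the beta chain of haemoglobin, lay between 6383 and 49130 (median 24320), by a probe set whose name marks a shared sequence family. Oaz1 and Oaz2, antizymes that restrain polyamine synthesis and whose translation needs a ribosomal frameshift, lay between 12940 and 40290 and between 17100 and 35940. The range of Pgk1 was narrow (SD 0.07), whereas that of Slc25a4 was wide (SD 0.80).

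Which probe sets were brightest depended on the array. Of the 100, 19 were among the 100 brightest on each of the 8 arrays, and 33 were so on each of the 6 without 1A and 2A. The ranking without those arrays shared 90 of the 100. The control titled 1hr, with 3 arrays, shared 77 of its own 100 brightest, and array 2bA shared 61. All 30 named genes had their highest mean in number 4 (26 of 30 without 1A and 2A). After quantile normalization, which forces all arrays to 1 distribution, 12 of 30 did. The ceiling of signals also differed, with a highest signal of 71495 among the arrays of number 4.

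Probe sets of several abundant filament genes read close to 0 on arrays 1A and 2A. They were chosen after their values were seen. Acta1, the actin of skeletal muscle, read 5.46 on 1A and 90.7 on 2A, against 10250 and 11400 on the companion arrays of those numbers. On the remaining polysomal control arrays it read 12330, 7027, 36220 and 40020, and on arrays 1aA, 1bA and 2aA of the control titled 1hr 17090, 15640 and 21210. Pvalb, the calcium buffer of fast fibres, read 1421 on 1A and 10.3 on 2A, against 24310 and 10420 on their companions and 51390 and 60920 on the arrays of number 4. Myl11, the regulatory light chain of fast myosin, read 0.12 on 1A and 0.10 on 2A, against 6604 and 14010, and 39470 and 55680 for number 4. Against its companion, 1A had 19 probe sets more than 4-fold lower and 32 more than 4-fold higher. Array 2A had 17 lower and 22 higher, so these arrays did not depart in 1 direction only. Altogether 12 of 6678 tested probe sets were more than 4-fold lower on both 1A and 2A than on their companions. Of these, 9 carried 1 symbol: Acta1, 2 probe sets of Tpm1, Myl11, Pvalb, Tnnt3, Cox4i1, Atp5po and Emc8. All but Emc8, a subunit of a membrane insertase, belong to filaments, calcium buffering, cytochrome oxidase or ATP synthase. The comparison with the companion arrays is what chose these probe sets, so it is a description.

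**Figure D2:**
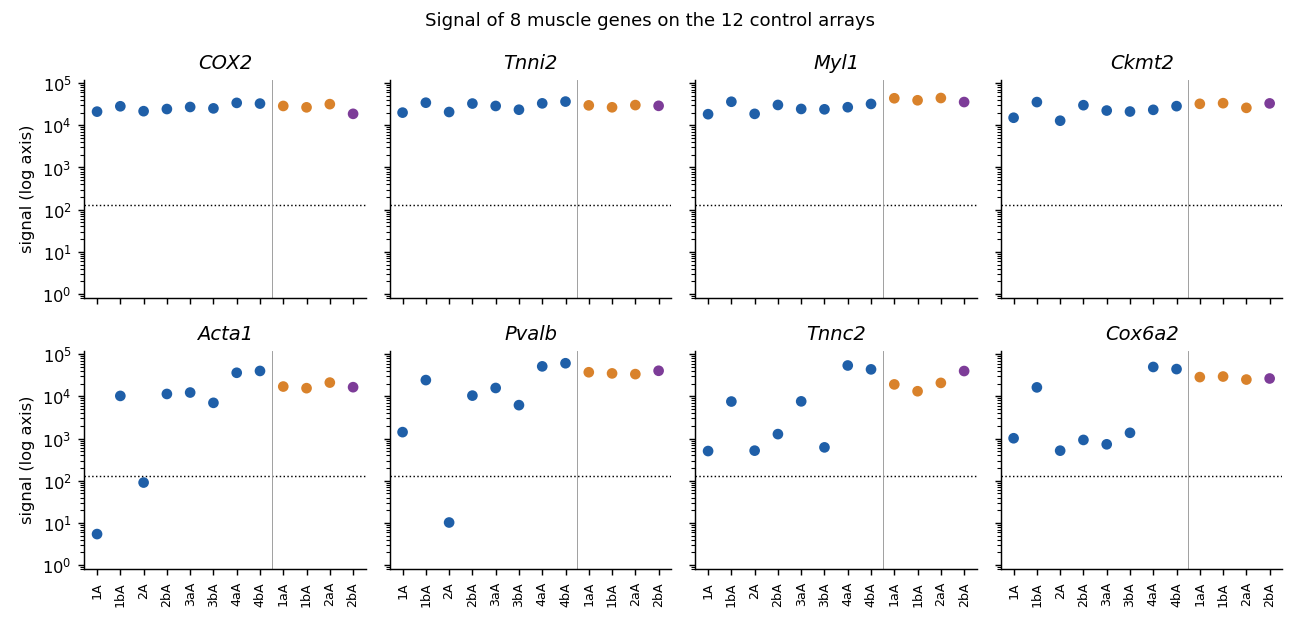
Signal (log axis) of 8 muscle genes on the 8 polysomal control arrays (blue), 3 arrays of the control titled 1hr (orange) and array 2bA (purple), 1 point per array, with the floor of 130 dotted. COX2, Tnni2, Myl1 and Ckmt2 stay within 12830 to 44260, while Acta1 and Pvalb drop below the floor on 1A or 2A and Tnnc2 and Cox6a2 spread from 506 to 53900.

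Tnnc2, the calcium-binding subunit of fast troponin, and Cox6a2, the heart and muscle isoform of a cytochrome oxidase subunit, were low on more than those arrays. Tnnc2 read 506 and 7543 for number 1, 517 and 1275 for number 2, 7615 and 619 for number 3, and 53900 and 43630 for number 4. Cox6a2 read 1018, 16330, 517, 928, 731 and 1369 on the first 6 arrays and 49690 and 44300 on those of number 4. In the control titled 1hr Tnnc2 read 19200, 13230 and 20850, and Cox6a2 read 28610, 29510 and 25020. They had the largest SD between numbers of all named genes measured above the floor on all 8 arrays, 2.58 for Tnnc2 and 2.76 for Cox6a2. The regions just before the starts of 4 of these fibre genes are given here because they read lowest on 1A or 2A and highest in number 4, with SDs between numbers of 2.45 for Acta1, 2.76 for Cox6a2, 2.58 for Tnnc2 and 2.30 for Pvalb. Without arrays 1A and 2A these SDs were 0.95, 2.86, 2.33 and 1.18, so the spread of Acta1 and Pvalb moved by over 1.5 times and that of the others did not. They come from RefSeq (build GRCr8) and end at the base before the annotated start, with matches to 4 motifs in capitals: TATAAA, the E box CANNTG bound by myogenic factors, the CArG box bound by serum response factor, and the MEF2 site.
Acta1: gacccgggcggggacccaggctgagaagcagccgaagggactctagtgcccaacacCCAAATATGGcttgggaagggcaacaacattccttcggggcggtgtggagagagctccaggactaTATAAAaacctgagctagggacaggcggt
Cox6a2: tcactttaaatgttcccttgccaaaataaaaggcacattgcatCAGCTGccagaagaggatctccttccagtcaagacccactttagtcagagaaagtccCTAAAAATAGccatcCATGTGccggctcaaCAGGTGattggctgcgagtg
Tnnc2: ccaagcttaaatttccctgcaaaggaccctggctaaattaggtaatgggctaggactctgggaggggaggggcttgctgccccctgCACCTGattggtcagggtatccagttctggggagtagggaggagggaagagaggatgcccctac
Pvalb: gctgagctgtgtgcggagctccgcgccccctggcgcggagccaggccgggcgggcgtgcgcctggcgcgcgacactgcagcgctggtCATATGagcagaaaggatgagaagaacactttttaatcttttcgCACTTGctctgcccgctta

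These are 150 bases each on the minus strand, at chr19:68784195-68784344 (Acta1), chr1:192219717-192219866 (Cox6a2), chr3:173935340-173935489 (Tnnc2) and chr7:111666290-111666439 (Pvalb). Both strands were searched, and no match overlapped another. Acta1 holds a TATAAA match that begins at base -29 and a CArG box that begins at base -94. Cox6a2 holds a MEF2 site at base -50 and 3 E boxes, Tnnc2 holds 1 E box and Pvalb 2. Over the same 150 bases of 27457 genes, 8.2% hold TATAAA, 46.1% an E box, 0.8% a CArG box and 1.7% a MEF2 site. A match describes letters in the sequence and is no evidence of binding in these samples.

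Most transcripts had an SD of log2 signal of 0.5 or less between numbers. Among the 3823 probe sets above the floor on all 8 arrays, the median SD was 0.29 between numbers and 0.28 between the 2 arrays of a number (0.20 in numbers 3 and 4). The former is taken over means of 2 arrays and the latter over single arrays, so their likeness does not show that numbers add no spread. An SD over 0.5 was seen in 618 (16.2%). Number 4 was the farthest from the mean in 295 of these. Without arrays 1A and 2A the count was 674.

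The named genes of smallest spread among the 500 brightest included Jph2, which ties the cell membrane to the calcium store, with number means of 14260, 14010, 14250 and 14820 (SD 0.03). Its single arrays ran from 10100 to 19430, with 1A and 2A lowest, so averaging the arrays of a number hid a spread between them. Rps3, a protein of the small ribosomal subunit, had 14040, 14140, 14670 and 14750 (SD 0.04). Prdx2, a peroxide-removing enzyme, lay between 5010 and 6384 on the 8 arrays, and Slc16a3, the lactate exporter of fast fibres, between 8283 and 11770. Col1a1, by 1 of its probe sets, lay between 6149 and 7241 (SD 0.08), and by another, brighter one between 7543 and 20990 (SD 0.62), so 2 probe sets of 1 gene disagreed on its spread.

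Pdk4 and several genes of fatty acid oxidation read higher in numbers 1 and 2 than in numbers 3 and 4, and other genes of the same list did not. Pdk4, the kinase that blocks pyruvate entry into the citrate cycle and is known to increase in fasting, read 1203, 1474, 2056 and 2680 on the arrays of numbers 1 and 2. It read 275, 353, 184 and 381 on those of numbers 3 and 4, and 339, 268 and 81.7 on the 3 arrays of the control titled 1hr. The first 4 arrays did not overlap with the others. Acadl, the first enzyme of long-chain fatty acid oxidation, read 12420, 10580, 11580 and 11790, then 5302, 5689, 5765 and 3794, and 2507, 3934 and 3345 in the control titled 1hr. Cpt2, which hands fatty acids to that pathway inside the mitochondrion, read 3890, 4732, 4340 and 5693, then 2657, 2762, 1982 and 2223, and 1822, 1514 and 1305. Hadha, a subunit of the trifunctional enzyme, had number means of 10850, 10040, 8057 and 6067. In these 4 genes the arrays of numbers 1 and 2 lay above all arrays of numbers 3 and 4. How many of all genes split in this way was not counted, so this is a description. Pdk4 was named for its spread, and Acadl, Cpt2 and Hadha were chosen after their values were seen. Mdh2 and Idh2, the bright citrate cycle enzymes named by rule, did not follow that split: number means were 20590, 16630, 18150 and 20510 for Mdh2 and 21590, 19160, 17420 and 22360 for Idh2. Over the 40 tested genes of the citrate cycle and fatty acid oxidation list, the median deviation from the mean of the 4 numbers was 0.25, 0.18, -0.05 and -0.42, against 0.01, 0.00, -0.03 and -0.02 over all 3890 genes. Number 3 thus lay near the median of all genes, and number 4 below it. Fabp3, the fatty acid carrier of muscle and heart, had its highest mean in number 4, with 18910, 16000, 13750 and 27720.

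**Figure D3:**
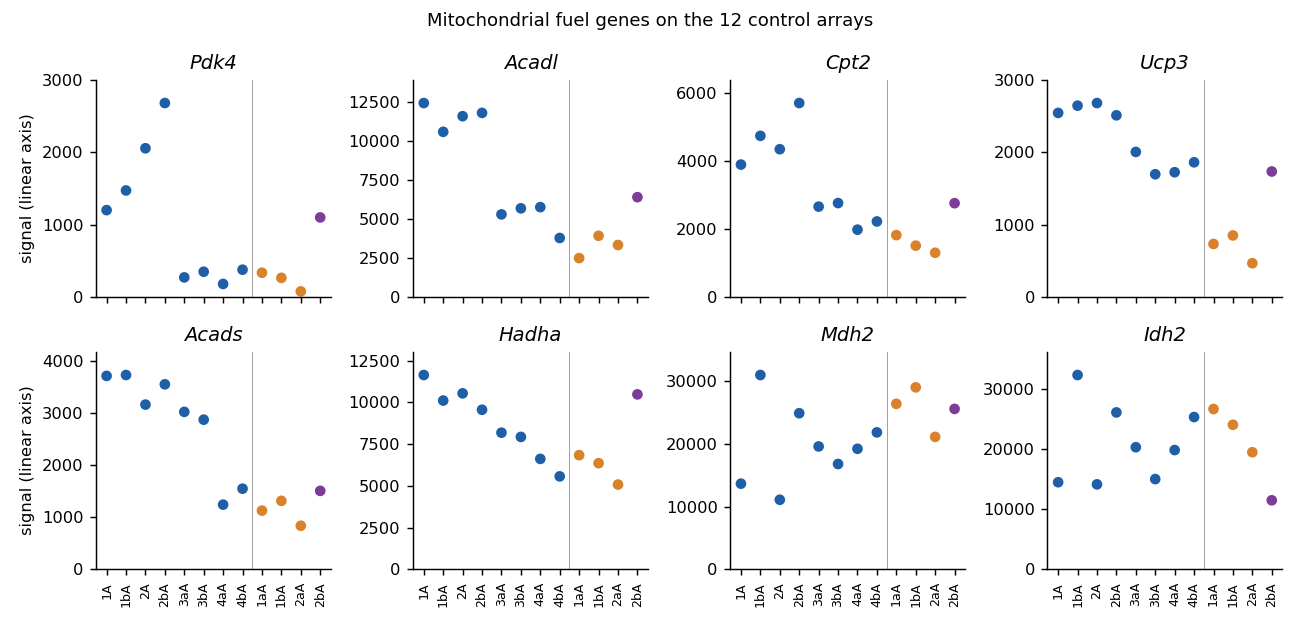
Signal (linear axis from 0) of 8 genes of fuel choice, fatty acid oxidation and the citrate cycle on the 8 polysomal control arrays (blue), 3 arrays of the control titled 1hr (orange) and array 2bA (purple), 1 point per array. Pdk4, Acadl, Cpt2 and Hadha are higher on the 4 arrays of numbers 1 and 2 than on those of numbers 3 and 4, which Mdh2 and Idh2 are not.

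Of the other genes named for their spread, 4 showed the same division, again without a count over all genes. Psap, the precursor of lysosomal saposins, read 4559, 4668, 5496 and 6042 on numbers 1 and 2, 1822 and 1898 on number 3, and 802 and 866 on number 4. Casz1, a zinc finger transcription factor, read 317 to 1726 on numbers 1 and 2 and 138 to 215 on numbers 3 and 4. A probe set annotated as Crp read 1358 to 2979 and 198 to 448. Its name marks probes shared by a sequence family, so this signal cannot be tied to 1 gene. A ribosomal-protein-like locus, Rpl19l4, read 4852 to 7835 and 463 to 709 and is reported as uncertain, since ribosomal protein genes have near-identical copies. Dcn, the collagen-binding proteoglycan decorin, did not: the probe set named for its spread read 1088 to 2553 on numbers 1 and 2, 213 and 284 on number 3, and 1622 and 952 on number 4. Actc1, the heart actin that skeletal muscle keeps at a lower level, had a different pattern: it read 15010 to 22300 on numbers 1 to 3 and 3643 and 3107 on number 4.

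Between the controls, which asks whether muscle at rest gave 1 baseline, no probe set passed. Of 6678 tested, 0 were higher (0.0%) and 0 lower (0.0%) in the control titled 1hr (limma without array 2bA, adjusted p under 0.05, 2 numbers against 4, lowest adjusted p 0.217). Unadjusted p was under 0.05 in 344 (5.15%), and the difference exceeded 2-fold in 134, of which 51 were positive and 83 negative. The median SE was 0.29 on the log2 scale, which limits how small a difference could be detected. The 3 arrays lay above all 8 polysomal control arrays in 125 probe sets (1.87%) and below all 8 in 114 (1.71%).

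The 10 genes of smallest p are given as not passing. They were chosen by this comparison, so a lack of overlap between the groups among them is a description. Cd74, the invariant chain that accompanies class II antigen-presenting molecules, lay between 1957 and 4637 (median 3488) on the 8 arrays and read 743, 911 and 1358 on the 3 arrays. The difference was -1.68 ± 0.41 (log2, SE; adjusted p = 0.464), and its 4 probe sets pointed the same way. With arrays as samples and the number as a random block its adjusted p was 0.0168 (limma), so the call for Cd74 depends on that setting. Acp5, the tartrate-resistant phosphatase of osteoclasts and macrophages, lay between 270 and 714 and read 229, 196 and 69.7 (-1.45 ± 0.30, adjusted p = 0.217). Its reading of 69.7 was below the floor of 130. Ctsk, the collagen-degrading cathepsin K, lay between 242 and 382 and read 111, 82.0 and 212 (-0.90 ± 0.22, adjusted p = 0.454). Of these 3 readings 2 were below the floor of 130, so the size of the difference depends on the floor. In these 3 genes of phagocytes and matrix turnover the groups did not overlap.

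The other negative differences among the 10 were those of Pcolce, P3h4, Slc22a7 and Foxs1. Pcolce, which enhances the trimming of procollagen, lay between 1242 and 2696 (median 2130) and read 870, 661 and 711 (-1.42 ± 0.33, adjusted p = 0.404, and 0.0262 with arrays as samples and the number as a random block). P3h4, a partner of the enzymes that modify collagen in the endoplasmic reticulum, lay between 585 and 975 and read 324, 442 and 268 (-1.27 ± 0.29, adjusted p = 0.383). Slc22a7, an organic anion transporter, lay between 458 and 1368 and read 186, 432 and 274 (-1.34 ± 0.27, adjusted p = 0.217). Its highest readings were those of arrays 1A and 2A. Without them the difference was -0.97 ± 0.28 (limma, adjusted p = 0.559). Pcolce, P3h4 and Slc22a7 too did not overlap between the groups. Foxs1, a forkhead transcription factor, lay between 241 and 577 and read 191, 304 and 72, which overlap (-1.20 ± 0.30, adjusted p = 0.464). Its reading of 72 was below the floor of 130.

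Positive differences were fewer. Kif13a, a kinesin motor, lay between 245 and 639 and read 973, 1006 and 1137 (1.28 ± 0.28, adjusted p = 0.291). Slc4a4, a sodium bicarbonate cotransporter, lay between 142 and 363 and read 517, 563 and 602 (1.35 ± 0.34, adjusted p = 0.464). Neither overlapped between the groups. Gzmk, a protease of cytotoxic lymphocytes, was above the floor on 3bA alone of the 8 arrays, at 176, and read 73, 261 and 258 on the 3, so its difference of 0.69 rests mainly on floored values.

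**Figure D4:**
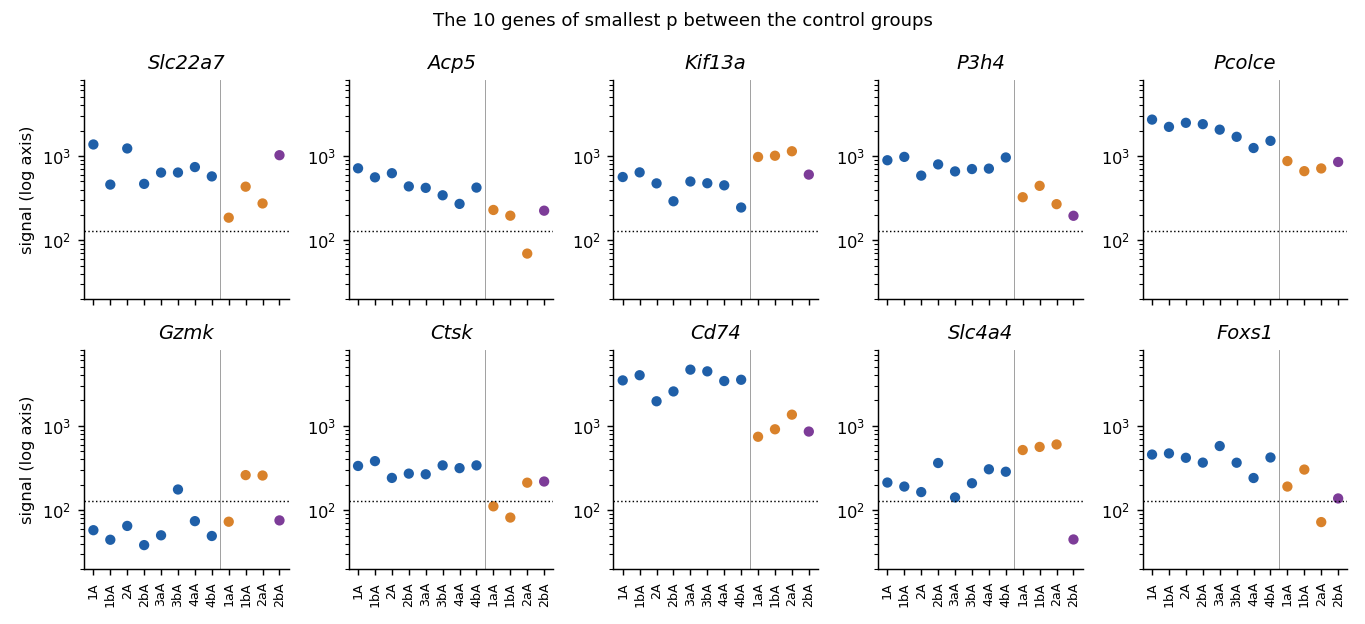
Signal (log axis) of the 10 genes of smallest p between the controls, on the 8 polysomal control arrays (blue), 3 arrays of the control titled 1hr (orange) and array 2bA (purple), with the floor of 130 dotted and 1 point per array. None passed (lowest adjusted p 0.217). Orange and blue points of all but Gzmk and Foxs1 do not overlap, in genes chosen by this comparison. Over all tested probe sets, the 3 arrays lay above all 8 in 1.87% and below all 8 in 1.71%.

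The extracellular matrix list lay lower in the control titled 1hr, with no member passing. Its 38 tested genes had a median difference of -0.43, against -0.01 over all 3890 genes tested, with 30 of 38 negative, 5 below all 8 polysomal arrays and 0 above (1.93% and 2.01% of all genes, each by its brightest probe set). Mmp14, a membrane-bound collagenase, read 1052, 903 and 705, against 1431 to 3429 (-1.41 ± 0.36, adjusted p = 0.464). Mgp, which keeps soft tissue from calcifying, read 5199, 5336 and 7896, against 8949 to 16870 (-0.96 ± 0.32, adjusted p = 0.768). Col1a1, the main chain of type I collagen, read 2822, 2726 and 3100 by its steady probe set, against 6149 to 7241 (-1.18 ± 0.42, adjusted p = 0.768). Its brighter probe set read 6407, 5768 and 11640, within the range of 7543 to 20990 in part. Sparc, a collagen-binding glycoprotein chosen after its values were seen, read 4272, 4179 and 6686, against 6571 to 16420, which overlap. The list median stayed between -0.59 and -0.32 over 19 alternative settings.

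Macrophage markers lay lower as well. The 15 tested genes had a median of -0.50, against -0.01 over all genes. Of the 15, 11 were negative (52.0% of all genes) and 4 positive. Below all 8 polysomal arrays lay 5 (1.93% of all genes). Their summed signal was 8027 to 8960 on the 3 arrays and 10350 to 17025 on the 8, which do not overlap. The brightest of the 15 were Cd74, RT1-Da and C1qb, which all lay lower and weighed most in the sum. RT1-Da, a chain of a class II molecule, read 1107, 877 and 1572, against 1909 to 3495. C1qb, a chain of the first complement component, read 872, 896 and 941, against 1160 to 2103. No marker of the 15 was below the floor on all 8 arrays, and fewer cells of a type cannot be told apart from less RNA per cell in whole muscle. The part of these cells in the matrix and protease differences was not tested. Neutrophil markers were near the floor, with sums of 484 to 682 and 458 to 1429 over 4 genes. Red cell sums of 50136 to 58627 lay within those of 15989 to 93739. Adipocyte sums of 18112 to 22615 overlapped with 17782 to 30357, and nerve sums of 6177 to 7260 with 5069 to 7532. Endothelium and smooth muscle sums were 25573, 32918 and 34977 on the 3 arrays, 2 of them above the highest of the 8. Those of the 8 ran from 18760 to 29472 (median 22596). Much of each sum was the signal of Des, which encodes the filament protein desmin. Des read 23790, 25570 and 18020 on the 3 arrays, against 9539 to 21270. The median difference of the 13 tested genes was -0.01, with 6 positive and 7 negative, and 0 lay above or below all 8.

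The proteolysis list had a median of -0.31 over 39 genes, with 29 negative and 6 below all 8 arrays. Over all genes 52.0% were negative and 1.93% lay below all 8. Psmc2, an ATPase of the proteasome's regulatory particle, read 1874, 1700 and 1498, against 1920 to 3002, and Ctss, a cathepsin of antigen-presenting cells that is also among the macrophage markers, read 334, 358 and 413, against 422 to 810. Both were chosen after their values were seen. Trim63 and Psmb4, among the brightest of the list, overlapped between the groups. The citrate cycle and fatty acid oxidation list had a median of -0.24 over 40 genes, with 27 negative and 4 below all 8 arrays. Cpt1a, the liver form of the gate to fatty acid oxidation, had its smallest p, reading 175, 25.8 and 132, against 221 to 406 (-1.02 ± 0.29, adjusted p = 0.537). The reading of 25.8 was below the floor of 130 and that of 132 close to it, so the size of the difference depends on the floor. Ucp3, the muscle uncoupling protein, chosen after its values were seen, read 736, 853 and 470, against 1697 to 2679 (-1.83 ± 0.63, adjusted p = 0.768). Its 4 numbers had means of 2593, 2593, 1844 and 1792, whereas those of Cpt1a were 297, 238, 382 and 248, highest in number 3.

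The fast fibre list went the other way. All 14 tested genes had a positive difference, with a median of 0.64, whereas 52.0% of all genes were negative. Of the 14, 1 lay above all 8 polysomal arrays, against 2.01% of all genes. Without arrays 1A and 2A, 13 of 14 were positive and the median was 0.38, and after quantile normalization it was 0.32. Myl1 read 43650, 39120 and 44260, against 18310 to 36110 (0.74 ± 0.48, adjusted p = 1). Myl11 had the smallest p of the list (3.04 ± 1.53, adjusted p = 0.997), and without 1A and 2A the difference was 1.49 ± 1.29. Slow fibre genes had a median of 0.08, which turned to -0.07 after quantile normalization, -0.04 without 1A and 2A and -0.08 without number 4 of the polysomal control. Respiratory chain genes had 0.19, which turned to -0.09 after quantile normalization and also with array 2bA in place of 2aA. All of the 30 brightest genes had a positive difference, 28 of 30 did without 1A and 2A, and 15 of 30 did after quantile normalization.

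Immediate early genes, which are switched on within minutes by activity and stress, had a median of -0.015, against -0.013 over all genes, and 4 of 30 lay above all 8 arrays while 2 lay below. The shares over all genes were 2.01% and 1.93%. Nr4a1, an orphan nuclear receptor of this class, read 15900, 15790 and 12130, against 3022 to 10920 (1.22 ± 0.59, adjusted p = 0.973). Its relative Nr4a3 read 452, 452 and 443, against 22.6 to 202 (1.59 ± 0.55, adjusted p = 0.768), with 2 of its 3 probe sets positive. On 5 of the 8 arrays it was below the floor of 130, so the size of this difference is set by the floor. Zfp36, which speeds the decay of cytokine messages and was chosen after its values were seen, read 1252, 1281 and 1521, against 628 to 1191. Cebpb, a leucine zipper factor, pointed down, reading 3704, 3172 and 3739, against 3964 to 6255. None passed.

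Ribosomal proteins and translation factors gave medians of 0.011 over 37 genes and 0.075 over 23. Rpl23, of the large subunit, read 33180, 30050 and 37370, against 12430 to 26510 (0.84 ± 0.41, adjusted p = 0.973), and Eef1g, a subunit of elongation factor 1, read 12160, 13300 and 11650, against 7538 to 10520. Eef2, which moves the ribosome along the message, overlapped (17070 to 21450 against 9511 to 27660). Heat shock and folding genes had a median of -0.13, with Ppib, a cyclophilin of the endoplasmic reticulum that folds collagen, at 1110, 981 and 1059, against 1902 to 2578 (-1.08 ± 0.29, adjusted p = 0.520). Excitability genes had -0.01, with Cacna2d1, an auxiliary subunit of the muscle calcium channel, at 22530, 33500 and 28460, against 4535 to 20190 (1.15 ± 0.42, adjusted p = 0.768). Antioxidant genes had -0.23, with Gpx3, the secreted glutathione peroxidase, at 4198, 3148 and 3608, against 4753 to 11720 (-0.98 ± 0.36, adjusted p = 0.768). Growth regulators had -0.11, with Cdkn1a, a cell cycle inhibitor, at 136, 143 and 139, just above the floor of 130, against 181 to 756.

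**Figure D5:**
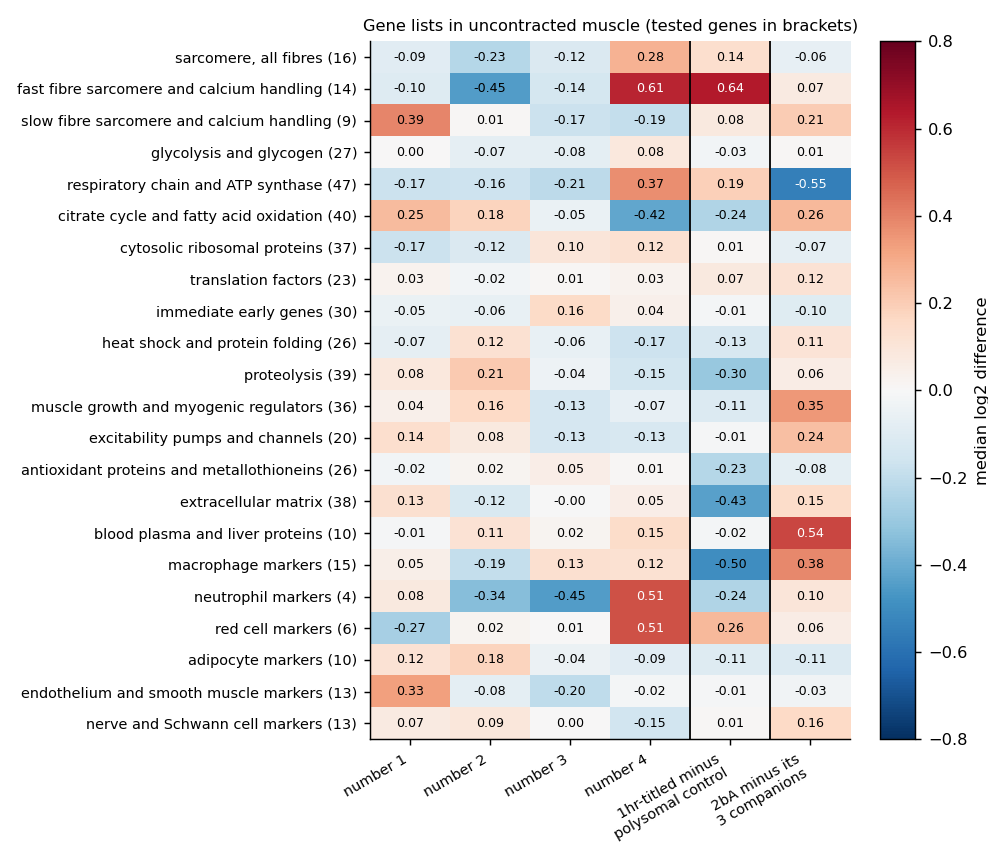
Median log2 differences (colour and printed value) of 22 gene lists, with the number of tested genes in brackets: columns 1 to 4 give each number of the polysomal control against the mean of its 4 numbers, the next the control titled 1hr minus the polysomal control without array 2bA, and the last array 2bA minus the mean of its 3 companions. Fast fibre genes are 0.61 in number 4 and 0.64 in the difference of the controls, where matrix and macrophage lists are -0.43 and -0.50.

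Array 2bA differed from its companion 2aA more than 1aA did from 1bA. The SD of the log2 difference over 6678 probe sets was 0.88 against 0.52, and 22.4% of probe sets differed by more than 2-fold against 6.98%. Across probe sets, the difference of 2aA from 2bA correlated at 0.482 with the polysomal minus total difference of exercised muscle at 6 h, whereas that of 1aA from 1bA correlated at 0.074. Probe sets of 1 array share its labelling and scaling, so these are descriptions. Of the 256 probe sets higher in the polysomal fraction, 197 read lower on 2bA than on all 11 other control arrays, and of the 318 lower ones 181 read higher. The share of all probe sets beyond all 11 was not taken. Against its 3 companions alone, 23.1% of all genes lay below all 3 on 2bA and 37.9% above all 3.

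Of the 10 genes named for the fraction difference, 8 lay on 2bA beyond 2aA in the direction of total RNA by more than 2-fold. Rab14, a small GTPase of endosomes, was 2.44 ± 0.22 higher in polysomal than in total RNA of exercised muscle at 6 h (log2, adjusted p = 1.04e-04), with geometric means of 1420 and 261. It lay between 1390 and 2737 on the polysomal control and read 1293, 1142 and 1330 on the 3 arrays and 343 on 2bA. Klf6, an early zinc finger factor, with 4026 and 805.5 in the fractions, lay between 713 and 2041 and read 726, 267, 655 and, on 2bA, 99. Tle5, a corepressor, was lower in polysomal RNA (-1.84 ± 0.29, adjusted p = 0.00247), with 3857 against 13830. It lay between 2707 and 8108 and read 7911, 7222 and 5880, and 14660 on 2bA. Atp1b2, a beta subunit of the sodium pump, with 493 against 1669, lay between 306 and 977, and read 651, 732 and 618, and 4681 on 2bA. Pdgfa, a chain of a platelet growth factor, with 1391 against 339 in the fractions, read 676 on 2aA and 657 on 2bA. Aldoa, the muscle aldolase, went against this pattern, with 19320 against 3790 in the fractions but between 11140 and 25740 on the polysomal control, 36330, 36230 and 14710 on the 3 arrays, and 23940 on 2bA.

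Genes farthest below 2aA on array 2bA included Igfbp5, which binds the IGFs (183 against 3416), Ndufa5, a complex I subunit (3005 against 26250), Cited2, a transcriptional coregulator (1202 against 9038), and Id3, an inhibitor of basic helix-loop-helix factors (201 against 1271). Farthest above were Vdac1, the pore of the outer mitochondrial membrane (8338 against 856), Phka1, the muscle subunit of phosphorylase kinase (1904 against 232), and Akt2, a kinase of insulin signalling (1748 against 240). Each of these 7 values of 2bA lay outside the range of all 11 other control arrays. The genes were chosen for their distance from 2aA, so this is a description. Cyp2a1, also named as far above 2aA, read 1081 on 2bA, within the range of 73.4 to 1639 on the polysomal control. By lists, respiratory chain genes lay 0.55 below the mean of the 3 companions on 2bA at the median, and 41 of 47 lay below all 3. Over all genes the median was 0.04, and 23.1% lay below all 3. Plasma and liver proteins lay 0.54 above and macrophage markers 0.38 above.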

How the data were processed

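Signals are the deposited intensity values of 1-colour Affymetrix rat arrays. The authors had scaled them before deposit (trimmed means without 2% at each end of 801 to 802 on all arrays, tested on the file); software, build and scaling target are not given in the sources used here. Signals were raised to a floor, the 40th percentile of all values (130), and taken to log2. Probe sets above it on at least 4 arrays were kept. Arrays of a number were averaged, and 6 groups were fitted together with limma 3.58.1 (R 4.3.3; lmFit, eBayes, 12 residual degrees of freedom, Benjamini-Hochberg threshold 0.05), without array 2bA and without a block. The fit was tested on simulated data. Symbols came from the platform annotation through RefSeq: 7006 probe sets had 1, 308 several and 1426 none. Each gene stands by its brightest probe set.

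The rule named the 30 brightest genes, the 10 of smallest p where under 5 passed, the 10 of largest spread, the 10 of smallest, each list's 3 brightest and its smallest p, and the genes farthest apart on 2bA or between fractions. Members and lists were chosen with earlier results of these data known. Scaling, floor, filter, samples, block and leave-one-out alternatives were tried, as the closing section gives. Deviations of equal numbers correlated at 0.10 and -0.05 between the controls. With 2 numbers in the control titled 1hr, this cannot settle whether equal numbers share an animal or batch. The labels do not say so, and no block was used in the main fit.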

Additional observations from a re-analysis of the deposited data

Results flagged for a closer look

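In groups of 4, a value far from the other 3 by Dixon's test (gap over range above 0.829) was found for 21 of 174 items tested, where chance gives about 1 in 20. Many of the genes were named for their spread or brightness. Array 2bA, with a fraction index of 0.438, stood apart from the other 3 arrays of its group.

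In 16 bright genes the log2 mean of number 4 of the polysomal control lay above the other 3: 15.67 for Ndufb8, 15.08 for Tnni2, 15.41 for Cox8b, 15.28 for Ndufs7, 15.57 for Myh4, 15.19 for Ndufs6, 15.56 for Atp5f1e, 15.74 for Slc25a4, 15.48 for COX3, 15.82 for Rps29, 15.68 for Ndufb9, 15.27 for Pkm, 15.64 for Atp5f1b, 15.64 for Uqcrfs1, 15.48 for Ndufb2 and 14.63 for Casq1, the calcium store protein of fast fibres. The arrays of number 4 also had the highest signal of the group (71495), and the part of that ceiling was not tested.

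Number 4 was low for Actc1, at 11.72 (3364 against 16810 to 18300 in the other numbers), and for Atp1b1, a sodium pump subunit, at 12.48 (5731 against 8392 to 9046). Number 2 was low for Id3, at 9.77 (874 against 1652 to 1822), and for Mmp2, a gelatinase, at 9.17 (578 against 794 to 834).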

How the results depend on the processing

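The count of 0 between the controls stayed 0 in the fits with 2bA, on the 2 groups alone, after both rescalings, with either other floor, with the stricter filter, without arrays 1A and 2A (chosen after seeing the data) and without each number in turn (0 to 0). It became 25 with a replicate block over all groups (5 higher, 20 lower; among them Acp5, Acadl, Mmp14 and Pcolce), 20 with the replicate block on the controls alone (numbers 1 and 2; 16 higher, 4 lower), 5 (all lower) with arrays as samples and the number as a random block (Cd74 and Pcolce among them), and 1 without the filter. Whether equal numbers share an animal or batch is not known, and the cause of these changes in count was not tested. The count between fractions was 479 after quantile normalization (318 higher, 161 lower), 506 after 75th percentile scaling (347 and 159) and 803 with a replicate block, 996 without arrays 1A and 2A of the polysomal group, and 259 to 1055 without each number. The index of 2bA was -0.868 after quantile normalization, where the other control arrays lay at 0.672 to 1.48 and the 1 h total arrays at -0.849 to -0.651. Of the 100 brightest probe sets 80 to 96 remained without each number, and 468 to 692 spread past 0.5. Of 78 genes compared between the controls, 69 kept the sign of their difference in all alternatives. With 4 numbers against 2 and unknown probe saturation, small differences and values of the brightest probe sets are the least certain.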
